A study of Mus musculus with 10 samples.

Results

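Satellite cells are the resident stem cells of skeletal muscle, and C2C12 is a mouse myoblast line derived from such cells that fuses into myotubes once serum is lowered. The 9 genes followed here, Pax7, Pax3, Spry1, Calcr, Cxcr4, Sdc3, Sdc4, Vcam1 and Ncam1, are markers or regulators of satellite cells, and they were taken by name from 23388 genes listed in all 4 deposited tables. They were selected with their levels in these same columns in view, so their levels and ratios are given as descriptions.

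The study compared Huwe1 knockdown with control in C2C12 myoblasts at day 0, after differentiation to day 6 and in myotubes at day 8, and USP10 overexpression with control at day 6. Huwe1 is a ubiquitin ligase and USP10 a deubiquitinase. There were 10 libraries in 7 groups. Wild-type cells gave 1 library at day 0 and 1 at day 6, Huwe1 knockdown gave 2 libraries at day 0 and 2 at day 6, control myotubes gave 1 library at day 8, labelled as carrying a non-targeting RNA although the column is headed as wild type, Huwe1 knockdown myotubes gave 2 libraries at day 8, and cells carrying a USP10 cDNA under the EF1a promoter gave 1 library at day 6. All groups were the same cell line, grown in medium with fetal bovine serum, and those of day 6 and day 8 were differentiated in medium with horse serum. For day 0 and day 6 the knockdown virus was given to myoblasts, before differentiation, followed by puromycin. For day 8 it was given to cultures that were already differentiating, and by the study's methods puromycin followed there as well. The column of control values in the USP10 table is headed as wild type at day 6, but its values differ from those of wild type in the day 6 Huwe1 table, and it is called here the day 6 control of the USP10 table. Each table holds 1 value per gene and condition, and the 2 knockdown libraries of each day share a single column, so no error between replicates could be given for any value and no test could be made.

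Pax7 is a paired box transcription factor that marks quiescent and activated satellite cells and is lost as myoblasts commit to fusion. When C2C12 cultures differentiate, a share of the cells stays mononucleated and undifferentiated. These reserve cells leave the cell cycle and are known to express Pax7, and they can resume proliferation when serum is restored. A differentiated culture is thus a mixture of myotubes and reserve cells. In such bulk RNA, fewer cells of a type and less RNA per cell cannot be told apart.

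The targets of the knockdown hairpins are shown as the sample labels give them, because by these labels the day 6 and day 8 results below rest on different sequences. The study's methods name only the day 8 pair, for myoblasts and myotubes alike, and which is right was not settled here. Each target was found in Huwe1 transcripts of the GENCODE annotation of GRCm38 and in transcripts of no other gene. By the labels, at day 0 and day 6 library 1 carried a hairpin against exon 32 of 83, in coding sequence at chrX:151883185-151883203, and library 2 carried one that spans exons 8 and 9, in coding sequence within chrX:151852544-151853408. At day 8, by the labels, library 1 carried a hairpin against the untranslated part of exon 83 at chrX:151934876-151934896, and library 2 carried one that spans exons 19 and 20, in coding sequence within chrX:151862387-151862654.
Huwe1 target, day 0 and day 6, library 1: gggaacctgtgattcgaga
Huwe1 target, day 0 and day 6, library 2: gagaagaggacaactagta
Huwe1 target, day 8, library 1: gcactcttcataactcacttt
Huwe1 target, day 8, library 2: gcactgctcatcaaagatgtt

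The level of Huwe1 was 38.3 FPKM (a fragment count divided by transcript length and by library depth) in wild type at day 0 and 15.2 in the knockdown. At day 6 it was 35.1 in wild type and 21.9 in the knockdown, and at day 8 it was 55.4 in the control and 33.0 in the knockdown. Usp10 was listed at 10.3 FPKM in the day 6 control of the USP10 table and at 38.3 in the overexpressing cells, whereas Huwe1 was 44.7 and 41.0 in that pair. Usp10 was also higher in the day 6 Huwe1 knockdown, at 35.4 against 13.2 FPKM. At day 0 Usp10 stood at 68.5 FPKM in wild type and 64.2 in the knockdown, above all of these levels. The level in the overexpressing cells was thus higher than its day 6 control only, and not higher than in myoblasts. Estimated from what 1 fragment adds to the lowest values over 4097 genes, the 4 columns made from 1 labelled library rested on about 19700000 to 32800000 fragments. The day 6 control of the USP10 table, whose library is not given, came to about 8540000 if it was 1 library, and the fragment numbers given for it below carry that condition. Myoblast genes (Myod1, Myf5, Cdh15 and Des) summed to 222 to 2049 FPKM over the 8 columns, whereas Ptprc, a pan-leukocyte gene, stayed at or under 0.0102 FPKM. Pecam1, an endothelial gene, stayed at or under 0.346 FPKM, but Cdh5, also endothelial, reached 13.5 FPKM in wild type at day 0.

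Pax7 (chr4:139738081-139832968, mm10) was at or near 0 in myoblasts and present in the differentiated controls. Its level was 0 FPKM in wild type and 0.00952 in the knockdown at day 0, 7.54 in wild type and 0.0438 in the knockdown at day 6, 24.7 in the control and 36.7 in the knockdown at day 8, and 8.27 in the control and 0.0808 in the overexpressing cells of the USP10 table. 4 of the levels, those of the 3 control columns after day 0 and of the day 8 knockdown, stood above 1 FPKM, and the other 4 stood below 0.1 FPKM. At day 0, 3 fragments on the 5854-base Pax7 transcript would have been listed as 0.0222 FPKM, which is the level that the depth of that library could still have missed.

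The Pax7 level in the day 6 knockdown was 172-fold below that of wild type, and the level with USP10 overexpression was 102-fold below its control. In the day 8 knockdown it was 1.48-fold above the control. The day 6 control levels were well counted, at about 247 fragments per kilobase in wild type and 70.6 in the control of the USP10 table, and the overexpressing cells kept about 2.45 fragments per kilobase. The 2 knockdown libraries cannot be seen apart, but if the column is their arithmetic mean, neither could have held more than 0.0876 FPKM at day 6. The same reasoning does not bound the day 8 libraries from below, since a mean of 36.7 FPKM could come mostly from 1 of them.

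**Figure D1:**
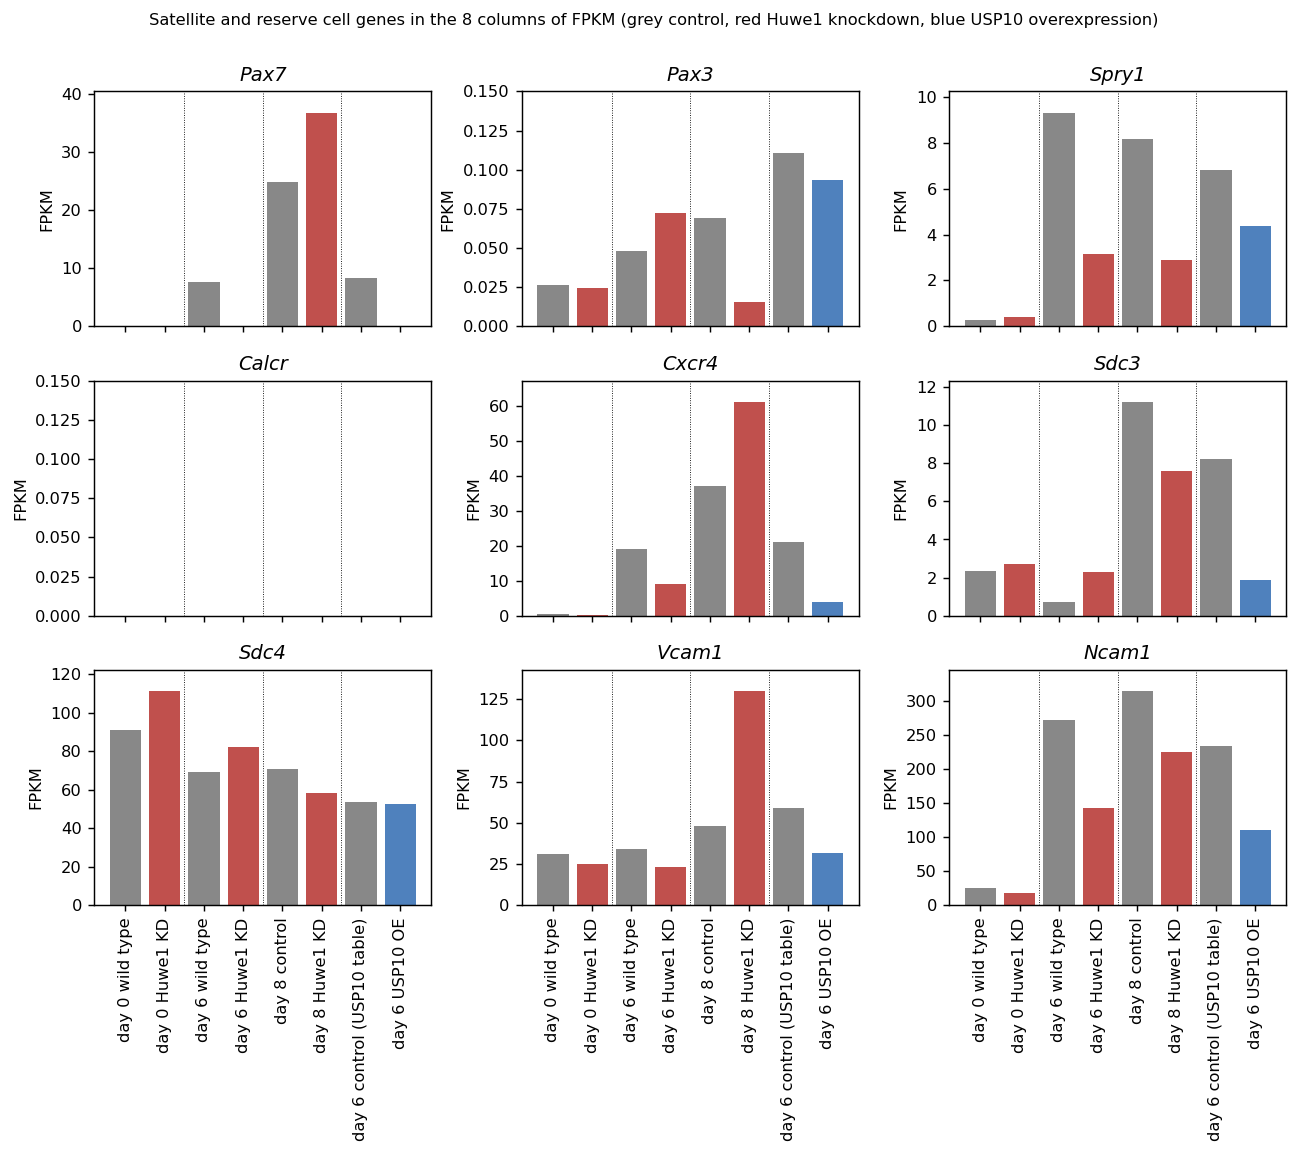
FPKM (linear vertical axis, its own range in each panel) of the 9 genes in the 8 columns, with control columns in grey, Huwe1 knockdown in red and USP10 overexpression in blue, 1 value per bar and no error bars. Pax7 stands at 7.54 to 36.7 FPKM in 4 columns and under 0.1 FPKM in the other 4, Calcr is listed at 0 throughout, and Pax3 does not exceed 0.111 FPKM.

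Not every gene that marks satellite cells in tissue was found with Pax7. Pax3 (chr1:78101267-78197136), the paralogue of Pax7 that directs embryonic muscle progenitors, ranged from 0.0157 to 0.111 FPKM over the 8 columns. Its level never reached 1 FPKM and came to about 10.4 fragments or fewer in each column outside the pooled knockdowns, so the differences among those levels are not interpretable. Calcr (chr6:3685720-3764713), the calcitonin receptor of quiescent satellite cells, was listed at 0 in all 8 columns. A count of 3 fragments on its 3763-base transcript would have been listed as 0.0257 to 0.0986 FPKM in the columns outside the pooled knockdowns, so Calcr could have gone unseen only below such levels. The name satellite and reserve cell genes therefore does not describe all 9 genes in these cultures, since 1 was at 0, 1 was near 0, and 3 (Sdc4, Vcam1 and Ncam1) stood at 24.3 FPKM or above in wild-type myoblasts without Pax7. Pax7 RNA was present in the differentiated controls, but whether reserve cells or other cells carried it was not tested.

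Spry1 (chr3:37639950-37644599), an inhibitor of receptor tyrosine kinase signalling needed for the return of satellite cells to quiescence, was near 0 in myoblasts as Pax7 was. Spry1 stood at 0.293 FPKM in wild type and 0.407 in the knockdown at day 0, at 9.31 and 3.17 at day 6, at 8.16 and 2.90 at day 8, and at 6.80 and 4.37 in the control and the overexpressing cells of the USP10 table. In contrast to Pax7, Spry1 was lower in the knockdown at both later times, 2.94-fold at day 6 and 2.81-fold at day 8, and 1.56-fold lower with USP10 overexpression. The 3 control levels after day 0 lay between 6.80 and 9.31 FPKM, and the 3 treated levels lay below all of them.

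Cxcr4 (chr1:128588199-128592299), the receptor of the chemokine Cxcl12 and a surface marker used to sort satellite cells, was also near 0 in myoblasts and, like Pax7, was lower in both treated cultures of day 6 and higher in the day 8 knockdown. The Cxcr4 level was 0.390 FPKM in wild type and 0.223 in the knockdown at day 0, 19.0 and 9.13 at day 6, 37.2 and 61.2 at day 8, and 21.1 and 3.84 in the control and the overexpressing cells of the USP10 table. It was thus 2.08-fold lower in the day 6 knockdown, 5.48-fold lower with USP10 overexpression and 1.64-fold higher in the day 8 knockdown. Both treated levels of day 6 stayed above 1 FPKM, and the overexpressing cells held about 117 fragments per kilobase of Cxcr4.

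The syndecans are heparan sulfate proteoglycans of the satellite cell surface that bind FGF and HGF. Sdc4 (chr2:164424247-164443188) was the steadiest of the 9, with levels of 91.1 and 111 FPKM at day 0, 69.1 and 82.2 at day 6, 70.5 and 58.2 at day 8, and 53.3 and 52.5 in the USP10 table, control first in each pair. Its highest level was 2.11-fold its lowest, and no comparison reached 2-fold. Sdc3 (chr4:130792537-130826318) stood at 2.33 and 2.71 FPKM at day 0, 0.728 and 2.31 at day 6, 11.2 and 7.58 at day 8, and 8.21 and 1.87 in the USP10 table. The treated levels of day 6 were alike, 2.31 in the Huwe1 knockdown and 1.87 with USP10 overexpression, but the controls beside them differed 11.3-fold. Sdc3 therefore came out 3.18-fold higher in the knockdown and 4.39-fold lower with USP10 overexpression. Set against the control of the other table instead, an alternative chosen after seeing the data, it was 3.55-fold lower in the knockdown and 2.57-fold higher with USP10 overexpression.

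Vcam1 and Ncam1 are adhesion molecules of satellite cells, and myotubes express Ncam1 as well. Vcam1 (chr3:116110020-116129688) stood at 31.0 and 25.0 FPKM at day 0, 34.2 and 23.2 at day 6, 47.8 and 129.8 at day 8, and 58.7 and 31.5 in the USP10 table. The day 8 knockdown, 2.71-fold above its control, was the highest of the 8 columns. The 1.47-fold lower level in the day 6 knockdown was smaller than the 1.72-fold gap between the day 6 controls, and with USP10 overexpression it was 1.86-fold lower. Against the control of the other day 6 table, Vcam1 was 2.53-fold lower in the knockdown and 1.08-fold lower with USP10 overexpression. Ncam1 (chr9:49502146-49799069) stood at 24.3 and 17.6 FPKM at day 0, 272 and 142 at day 6, 313 and 224 at day 8, and 234 and 109.6 in the USP10 table. It was lower in the treated column of every pair, by 1.38-fold at day 0, 1.91-fold at day 6, 1.40-fold at day 8 and 2.13-fold with USP10 overexpression.

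The first question was whether these genes appear as control cultures differentiate. With 1 FPKM required in at least 1 column and 0.01 FPKM added to each value before the log2 ratio, 7 of the 9 genes were kept between wild type at day 0 and at day 6. Of these, 4 (Pax7, Spry1, Cxcr4 and Ncam1) were at least 2-fold higher at day 6 and 1 (Sdc3) at least 2-fold lower. Over all 11653 genes kept, 21.5% were at least 2-fold higher and 23.2% at least 2-fold lower. The tables were normalized separately, so these ratios describe the listed levels. Spry1 was 31.8-fold, Cxcr4 48.8-fold and Ncam1 11.2-fold higher at day 6, while Pax7 was listed at 0 at day 0 and has no fold. From day 6 to the day 8 control, Pax7 was 3.28-fold and Sdc3 15.4-fold higher, and the other 5 differed by less than 2-fold, where 13.8% of 11525 genes were at least 2-fold higher and 5.81% at least 2-fold lower. By its label the day 8 control also carried a non-targeting RNA, which the day 6 wild type did not, and Mki67, a gene of cycling cells, stood at 46.7 FPKM in it against 0.629.

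The day 6 controls allowed a look at how far 2 control columns of the same day could lie apart. Over 11459 genes, 19.9% differed at least 2-fold in either direction, and the robust SD of the log2 ratio was 0.63. Among the 7 members kept, 1 (Sdc3) differed that far. Pax7 differed 1.10-fold, Cxcr4 1.11-fold, Ncam1 1.16-fold, Sdc4 1.30-fold, Spry1 1.37-fold and Vcam1 1.72-fold. The Pax7 and Cxcr4 levels of these controls cannot be ranked against each other on such gaps. The gaps include whatever the separate normalization of the tables added.

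In myoblasts, Huwe1 knockdown left the 4 members that could be compared (Sdc3, Sdc4, Vcam1 and Ncam1) within 2-fold of wild type. None of the 4 was at least 2-fold lower, beside 1.69% of 10874 genes, and none was at least 2-fold higher, beside 1.90%. The log2 ratios of the 4 lay between -0.47 for Ncam1 and 0.29 for Sdc4. Pax7, Pax3, Spry1, Calcr and Cxcr4 were under 1 FPKM in both columns.

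At day 6, Huwe1 knockdown was set against wild type, and 7 members were kept. By the labels the controls of day 0 and day 6 were wild type, with no non-targeting RNA. In both pairs, loss of Huwe1 therefore cannot be told apart from the virus and puromycin given to the knockdown cells. Of these, 3 (Pax7, Spry1 and Cxcr4) were at least 2-fold lower, beside 13.4% of all 11695 genes, and 1 (Sdc3) was at least 2-fold higher, beside 17.6%. Since the genes were selected on these levels, nothing is read from the excess. Ncam1 lay just short of the 2-fold line, with a log2 ratio of -0.94, and Cxcr4 lay just past it, at -1.06. Pax7 had the 34th lowest ratio of the 11695 genes, at -7.13 on the log2 scale with 0.01 FPKM added, a value that becomes -3.03 with 1 FPKM added. The median ratio of the 7 members was -0.94, and that of all genes was -0.01.

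With USP10 overexpression at day 6, 4 of 7 members kept (Pax7, Cxcr4, Sdc3 and Ncam1) were at least 2-fold lower, beside 10.0% of 11482 genes, and none was at least 2-fold higher, beside 9.70%. Pax7 had the 55th lowest ratio, at -6.51. The median ratio of the members was -1.09, and that of all genes was 0.05. Spry1, at -0.64, and Vcam1, at -0.90, were lower without reaching 2-fold. When the overexpressing cells were set against wild type of the other day 6 table, Pax7 was 93.3-fold lower, Cxcr4 4.95-fold lower, Ncam1 2.48-fold lower and Spry1 2.13-fold lower, while Vcam1 was 1.08-fold and Sdc4 1.32-fold lower and Sdc3 was 2.57-fold higher.

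**Figure D2:**
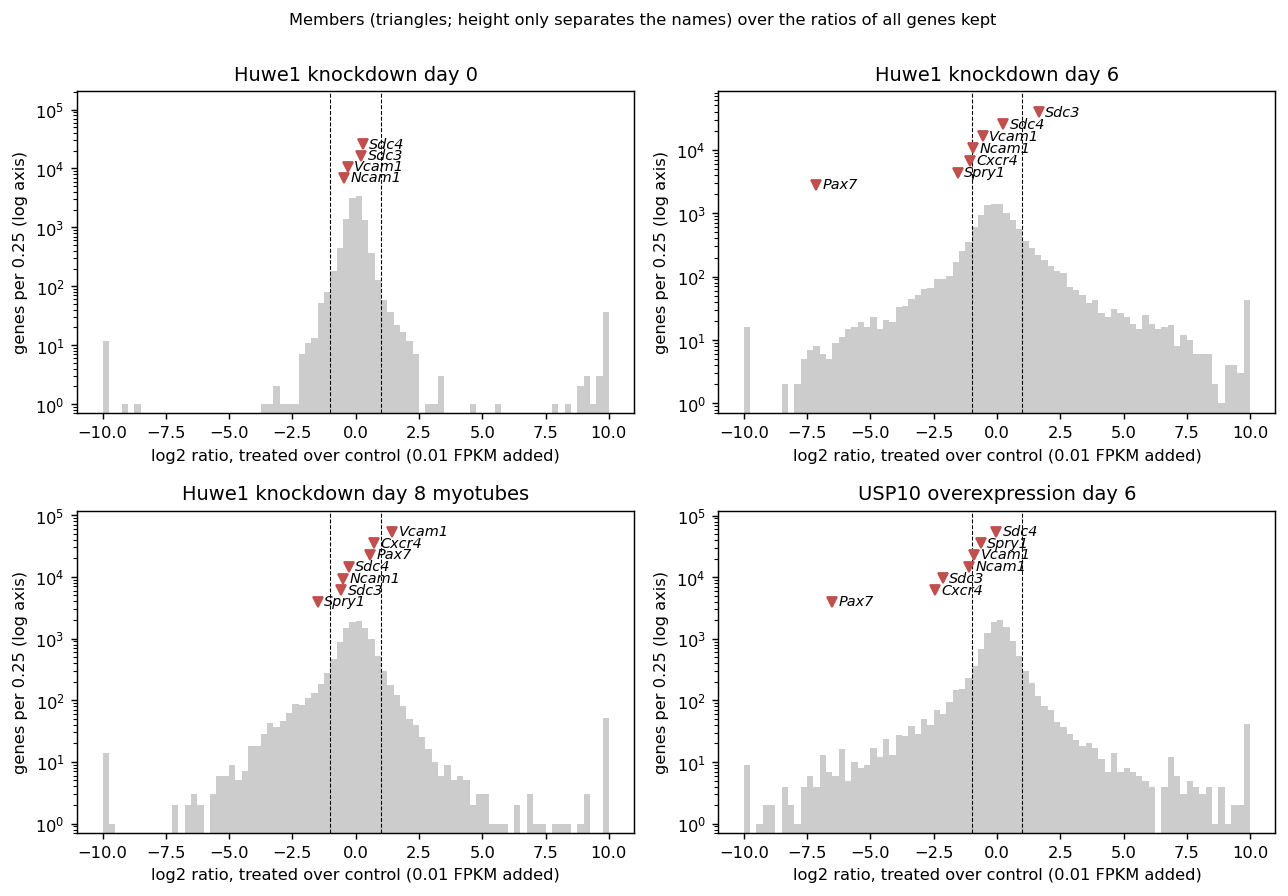
Histograms of the log2 ratio of treated to control (horizontal axis, 0.01 FPKM added) for all genes kept in each of the 4 comparisons, with the number of genes on a log axis, ratios past 10 in the end bins, and dashed lines at 2-fold. Triangles mark the members kept, their height serving only to separate the names, and Pax7 lies far to the left at -7.13 in the day 6 knockdown and -6.51 with USP10 overexpression but at 0.57 in the day 8 knockdown.

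In myotubes at day 8, Huwe1 knockdown was set against the day 8 control. Of 7 members kept, 1 (Spry1) was at least 2-fold lower, beside 10.0% of 11755 genes, and 1 (Vcam1) was at least 2-fold higher, beside 7.89%. Vcam1, at 1.44, had the 481st highest ratio of the 11755. Cxcr4, at 0.72, and Pax7, at 0.57, were higher without reaching 2-fold, and Sdc3, Ncam1 and Sdc4 were lower without reaching it, at -0.57, -0.49 and -0.28. The day 6 and day 8 knockdowns differed in when the virus and puromycin were given and in the day of collection. By the sample labels alone, they also differed in their hairpins and in the kind of control. These differences cannot be told apart.

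**Figure D3:**
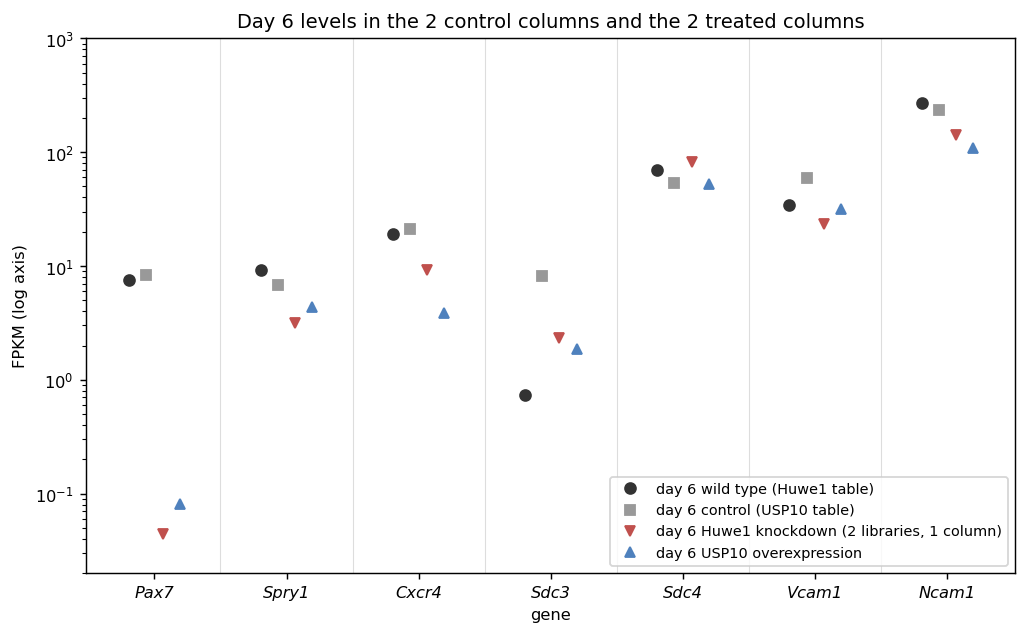
FPKM (log axis) of the 7 members with at least 1 FPKM in a day 6 column, with the 2 controls as a black circle and a grey square, the Huwe1 knockdown as a red triangle and USP10 overexpression as a blue triangle, 1 value each. The 2 controls nearly coincide for Pax7, at 7.54 and 8.27 FPKM, with both treated levels under 0.1 FPKM, whereas for Sdc3 the treated levels of 2.31 and 1.87 FPKM lie between the controls of 0.728 and 8.21 FPKM.

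Genes of other cell states also differed between treated and control columns, not always in the direction of Pax7. Their part in the Pax7 levels was not tested. The 7 genes of differentiated muscle (Myog, Ckm, Myh3, Acta1, Tnnt3, Ttn and Mymk) summed to 12225 FPKM in wild type and 1884 in the knockdown at day 6, to 5466 and 2410 in the USP10 table, and also to 10257 and 2264 at day 8, where Pax7 was not lower. All 7 were at least 2-fold lower in the knockdown at both times, beside 13.4% of all genes at day 6 and 10.0% at day 8. With USP10 overexpression 6 were so, beside 10.0%. The 7 mesenchymal or fibroblast genes (Pdgfra, Dcn, Ly6a, Thy1, Col1a1, Col3a1 and Cd34) summed to 125 and 4513 FPKM at day 6, to 511 and 4127 in the USP10 table, and to 508 and 802 at day 8. Of these, 6 were kept, and 6 were at least 2-fold higher in the day 6 knockdown, beside 17.6% of all genes. With USP10 overexpression 3 were so, beside 9.70%, and in the day 8 knockdown 2, beside 7.89%. In that day 8 column 1 (Ly6a, at 13.9 and 4.28 FPKM) was at least 2-fold lower, beside 10.0%. Dcn, a small proteoglycan of fibroblasts, made up most of the sum in the 2 treated columns of day 6. Its level was 7.94 and 2987 FPKM at day 6 and 50.3 and 3037 in the USP10 table, against 4.19 and 8.75 at day 8. The 5 cycling genes (Mki67, Top2a, Ccnb1, Cdk1 and Bub1) summed to 3.16 and 16.7 FPKM at day 6 and to 13.1 and 10.7 in the USP10 table. At day 8 they summed to 133.7 in the control and 12.2 in the knockdown, so that the higher Pax7 level stood beside the lower level of cycling genes. Endothelial genes (Pecam1, Cdh5, Kdr and Tek) summed to 13.6 and 11.4 FPKM at day 0, 0.106 and 7.92 at day 6, 0.158 and 0.387 at day 8 and 0.781 and 7.31 in the USP10 table. Cdh5 gave most of the sum in the day 6 treated columns, at 6.83 and 6.81 FPKM, and Pecam1 stayed at 0.0146 and 0.0432 there. Blood genes (Ptprc, Cd68 and Itgam) summed to 0.807 to 4.70 FPKM over the 8 columns. The 2 day 6 controls also lay apart in these lists, where 19.9% of all genes differed at least 2-fold. Against wild type, the control of the USP10 table was at least 2-fold lower in 4 of 7 differentiated muscle genes. It was at least 2-fold higher in all 6 mesenchymal and all 4 cycling genes kept.

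**Figure D4:**
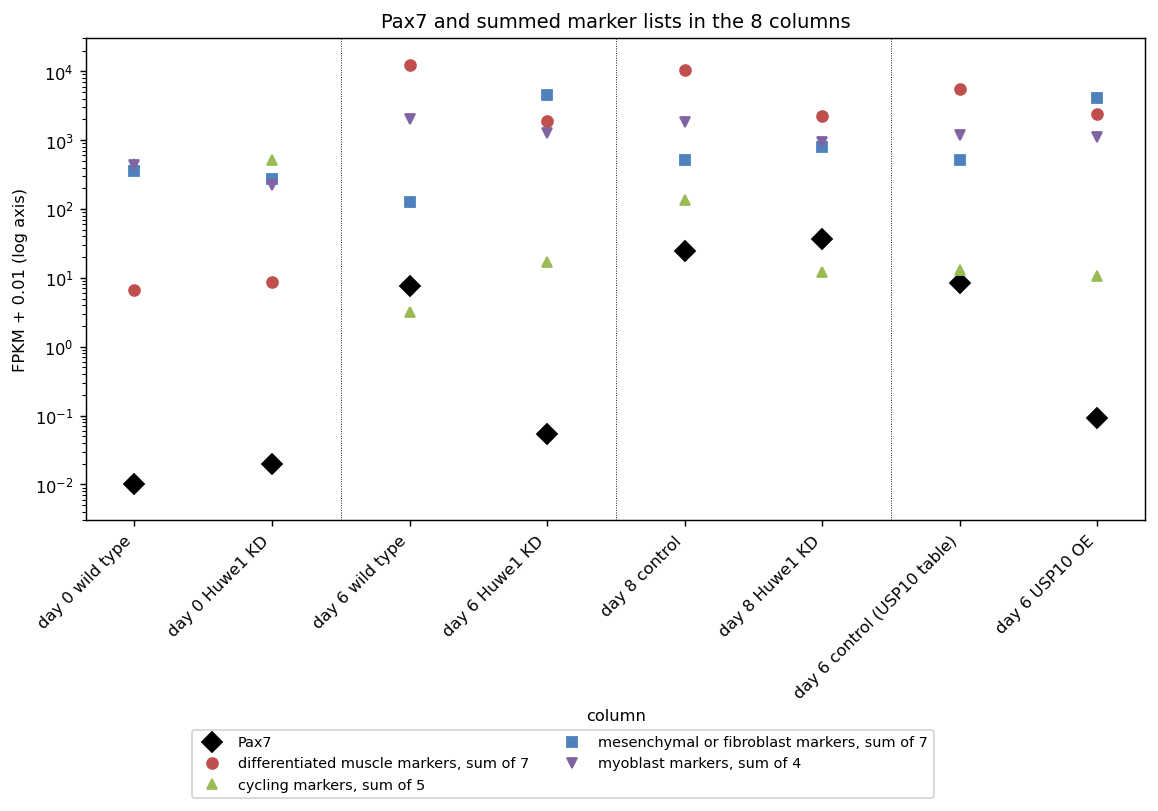
Pax7 (black diamonds) and the summed levels of 4 marker lists in the 8 columns, as FPKM with 0.01 added on a log axis, 1 value per column. Differentiated muscle genes are lower in each of the 3 treated cultures after day 0, and mesenchymal genes stand at 4513 and 4127 FPKM in the 2 treated columns of day 6, where Pax7 is under 0.1 FPKM.

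The promoters of Pax7, Spry1 and Cxcr4 are shown because these genes were near 0 in myoblasts and appeared together in the differentiated controls. Each is the 250 bases before the gene's RefSeq start in GRCm38.p6, with CANNTG, the E-box letters that MyoD family factors can bind, in capitals. A RefSeq promoter was found for 6 of the 9 members. The Pax7 window is chr4:139832969-139833218 on the minus strand, that of Spry1 chr3:37639697-37639946 on the plus strand and that of Cxcr4 chr1:128592300-128592549 on the minus strand. In GENCODE the Pax7 transcript spans chr4:139737062-139833528, so by that annotation the Pax7 window lies inside the transcript and not before its start. The Cxcr4 transcript spans chr1:128588199-128592290 there, so the Cxcr4 window lies before its start without touching it. The bases just after the RefSeq start of Cxcr4 were not found in a GENCODE transcript of the gene.
Pax7 promoter: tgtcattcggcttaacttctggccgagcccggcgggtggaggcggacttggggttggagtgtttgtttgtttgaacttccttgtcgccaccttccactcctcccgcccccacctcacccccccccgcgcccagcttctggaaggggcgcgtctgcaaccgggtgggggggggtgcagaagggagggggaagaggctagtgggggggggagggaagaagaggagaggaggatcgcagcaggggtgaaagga
Spry1 promoter: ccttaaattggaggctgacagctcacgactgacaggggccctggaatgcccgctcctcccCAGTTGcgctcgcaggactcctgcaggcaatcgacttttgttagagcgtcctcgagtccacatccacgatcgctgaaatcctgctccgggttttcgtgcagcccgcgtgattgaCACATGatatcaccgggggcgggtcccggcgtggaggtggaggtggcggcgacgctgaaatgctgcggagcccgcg
Cxcr4 promoter: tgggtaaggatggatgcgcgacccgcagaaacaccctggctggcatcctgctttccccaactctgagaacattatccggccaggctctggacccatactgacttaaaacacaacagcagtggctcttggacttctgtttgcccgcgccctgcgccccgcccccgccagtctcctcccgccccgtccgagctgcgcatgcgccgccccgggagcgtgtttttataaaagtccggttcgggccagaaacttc
The Spry1 window held 2 matches, and those of Pax7 and Cxcr4 held 0. CANNTG, which reads the same on both strands as a pattern, was found in 66.2% of 32851 promoter windows of the same length. The letters TGGGAA, the core of the site read by Rbpj, the effector of Notch signalling, were in 21.6% of them on either strand and in none of the members' windows. A match is a description of letters, and the absence of a match covers these windows only.

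The partners of the members, 31 genes that supply their ligands, co-receptors and relatives, had genes on both sides in each comparison. At day 0, 1 of 18 kept was at least 2-fold lower and 2 were at least 2-fold higher, beside 1.69% and 1.90% of all genes. In the day 6 knockdown, 3 of 21 kept were at least 2-fold lower and 9 higher, beside 13.4% and 17.6%. With USP10 overexpression 6 of 24 were lower and 7 higher, beside 10.0% and 9.70%. In the day 8 knockdown, 2 of 21 were lower and 3 higher, beside 10.0% and 7.89%.

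Cxcl12, the ligand of Cxcr4, was higher in every treated column. It stood at 5.87 and 14.2 FPKM at day 0, 1.25 and 101.8 at day 6, 2.03 and 29.1 at day 8, and 14.6 and 97.4 in the USP10 table. Its 2 day 6 controls differed 11.6-fold, but both treated levels stood above both controls. Ackr3, the scavenging receptor for Cxcl12, stood at 31.0 and 21.5 FPKM at day 0, 8.11 and 45.6 at day 6 and 6.44 and 26.2 in the USP10 table. Ligand and receptor thus went opposite ways in the treated cultures of day 6, where Cxcr4 was lower.

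St8sia2, which adds polysialic acid to Ncam1, was near 0 in the same 4 columns as Pax7. It stood at 0.251 FPKM in wild type and 0.0532 in the knockdown at day 0, 52.6 and 0.329 at day 6, 38.2 and 24.8 at day 8, and 34.2 and 0.0890 in the USP10 table. The second polysialyltransferase, St8sia4, went the other way at a far lower level, 0.0528 and 3.12 FPKM at day 6 and 0.157 and 1.99 in the USP10 table. Ncam2, the paralogue of Ncam1, was listed at 0 and 1.98 FPKM at day 6 and 0.0249 and 1.79 in the USP10 table.

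Of the calcitonin receptor partners, Calcrl, the related receptor for CGRP and adrenomedullin, stood at 2.13 and 12.7 FPKM at day 6 and at 1.24 and 12.7 in the USP10 table. At day 0 Calcrl stood at 7.96 and 6.70 FPKM. Ramp2, which carries Calcrl to the cell surface, stood at 7.75 and 0.969 FPKM at day 6, 13.5 and 20.3 at day 8 and 5.60 and 0.443 in the USP10 table, lower where Pax7 was lower. Itga4, the alpha subunit of the integrin that binds Vcam1, stood at 4.42 and 0.161 FPKM at day 8 and 2.70 and 0.249 in the USP10 table, but at 0.373 and 0.455 in the day 6 Huwe1 table, a 7.23-fold gap between the day 6 controls. The beta subunit Itgb7 was listed at 15.1 and 37.9 FPKM at day 0, at 0.0246 and 1.30 at day 6 and at 0 and 1.38 in the USP10 table. Itga9 was at 1.34 and 0.0387 FPKM in the USP10 table. It was lower in the knockdown as well, under the 1 FPKM minimum, at 0.954 and 0.0134 at day 6 and 0.306 and 0.0085 at day 8. The glypican Gpc4 stood at 1.22 and 6.64 FPKM at day 8 and 6.56 and 0.124 in the USP10 table, but was under 0.1 FPKM in both columns of the day 6 Huwe1 table. Spred2, an inhibitor of Ras signalling related to Spry1, stood at 14.3 and 14.6 FPKM at day 0, 3.16 and 12.8 at day 6 and 6.00 and 20.9 in the USP10 table.

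Fgfr4, an FGF receptor of myogenic cells known as a target of Pax genes, was the gene most like Pax7 by correlation of levels. Its level was 0 FPKM in both columns of day 0, 15.1 in wild type and 0.263 in the knockdown at day 6, 25.8 and 40.1 at day 8, and 9.97 and 0.134 in the USP10 table. Over the 8 columns the Pearson correlation of log2(FPKM + 1) with Pax7 was 0.992, the highest of 10235 genes with at least 5 FPKM in 1 column, followed by Gm10336 at 0.991 and Dtnbp1 at 0.990. By rank, Spearman's rho for Fgfr4 was 0.946, which placed it 96th. The 8 columns are not independent, as they come from 1 cell line and share tables, so these values describe likeness only. The closest genes to Cxcr4 were Pcdhb21 (0.997), Zcchc6 (0.992) and Zfp523 (0.989), those to Spry1 were Vwa8 (0.993), Cacnb1 (0.993) and Tmem182 (0.989), and those to Ncam1 were Ube2h (0.993), Dyrk1b (0.989) and H19 (0.989). Sdc3 was most like Tmem219 (0.965), Usp3 (0.964) and Bgn (0.947), Sdc4 like Lysmd3 (0.972), Lin7c (0.957) and Ppp2r4 (0.947), and Vcam1 like Vipas39 (0.974), Hivep1 (0.974) and Hs3st1 (0.972).

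A wider list of 38 satellite cell, Notch and quiescence genes, 4 of which (Met, Fgfr1, Fgfr4 and Itgb1) are also among the partners, split in both directions. From wild type at day 0 to day 6, 16 of 35 kept were at least 2-fold higher and 6 lower, beside 21.5% and 23.2% of all genes. In the day 0 knockdown, 2 of 30 (Jag2 and Notch3) were at least 2-fold lower, beside 1.69%, and none was higher, beside 1.90%. In the day 6 knockdown, 12 of 36 were lower and 8 higher, beside 13.4% and 17.6%. With USP10 overexpression 9 of 35 were lower and 5 higher, beside 10.0% and 9.70%, and in the day 8 knockdown 6 of 34 were lower and 2 higher, beside 10.0% and 7.89%.

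Among the genes that were lower with Pax7 at day 6, Gpx3, a glutathione peroxidase, stood at 89.7 and 1.19 FPKM at day 6, 61.8 and 175 at day 8 and 130.1 and 2.33 in the USP10 table. Dll1, a Notch ligand, stood at 15.4 and 1.64 FPKM at day 6, 23.5 and 34.8 at day 8 and 5.37 and 0.337 in the USP10 table. Heyl, a target of Notch, stood at 5.89 and 0.337 FPKM at day 6, 27.2 and 22.4 at day 8 and 2.00 and 0.0684 in the USP10 table, and it lies outside the naming rule and was chosen after its values were seen. The day 6 controls differed 2.95-fold for Heyl and 2.86-fold for Dll1. The other Notch genes, outside that rule at day 6, were split in the day 6 knockdown. Hey1, Jag2 and Notch1 were at least 2-fold lower, Notch2 and Jag1 at least 2-fold higher, and Hes1, Rbpj and Notch3 within 2-fold. Pax7, Fgfr4, Ramp2, Gpx3 and Dll1 were thus each at least 2-fold lower in both treated cultures of day 6. In the day 8 knockdown, only Gpx3 of these genes was at least 2-fold higher. The day 8 log2 ratios of Pax7, Dll1, Ramp2 and Fgfr4 were 0.57, 0.57, 0.59 and 0.63. These ratios were about as large as the robust SD of 0.63 between the day 6 controls, or smaller, so no rise is read from them. Cdkn1c, the cell cycle inhibitor p57, was at least 2-fold lower at day 8 too. It stood at 8.56 and 0.0400 FPKM at day 6, 67.7 and 7.26 at day 8 and 4.95 and 0.658 in the USP10 table. Megf10, a receptor that favours satellite cell proliferation, was likewise lower at both times. It stood at 41.5 and 5.22 FPKM at day 6, 63.7 and 16.1 at day 8 and 12.5 and 2.78 in the USP10 table. The Megf10 level of the day 6 controls differed 3.32-fold.

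Other genes of the wider list were higher than their controls in the treated cultures of day 6. In wild type at day 0, Cd34 stood at 17.5, Klf4 at 37.2, Myf5 at 12.5 and Cav1 at 163 FPKM, and each was lower in wild type at day 6. Both treated levels of day 6 lay above the day 0 level for Cd34, Klf4 and Myf5 but below it for Cav1. Cd34, which marks satellite cells as well as fibroblasts and is also in the mesenchymal list, stood at 1.59 and 144.7 FPKM at day 6, 7.22 and 5.45 at day 8 and 27.8 and 93.2 in the USP10 table. Klf4, a transcription factor, stood at 6.90 and 116.8 FPKM at day 6, 11.2 and 3.85 at day 8 and 20.5 and 127.8 in the USP10 table. Myf5, the myogenic factor of committed satellite cells, stood at 3.51 and 18.5 FPKM at day 6, 7.36 and 8.14 at day 8 and 4.79 and 20.2 in the USP10 table. The caveolin Cav1 stood at 11.3 and 82.5 FPKM at day 6, 95.8 and 36.5 at day 8 and 58.9 and 102.8 in the USP10 table, with a 5.21-fold gap between its day 6 controls. The Cd34 level of the 2 day 6 controls differed 17.5-fold, and that of Klf4 2.97-fold, with both treated levels above both controls for each gene.

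**Figure D5:**
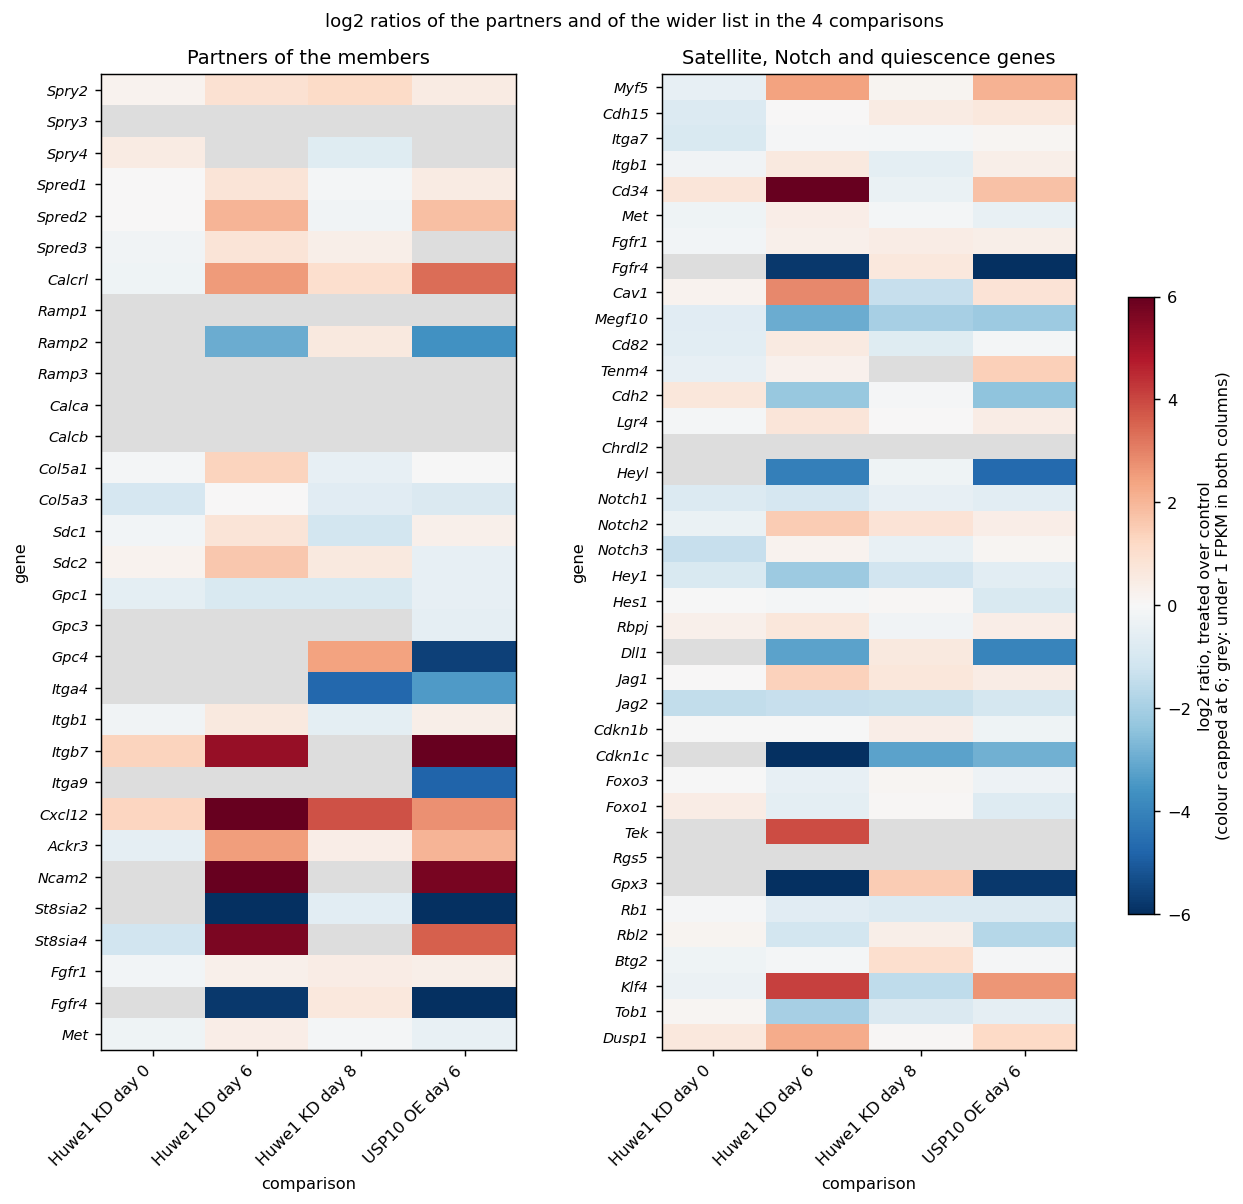
Colour map of the log2 ratio of treated to control (red higher, blue lower, colour capped at 6, grey where both columns were under 1 FPKM) for the 31 partners on the left and the 38 genes of the wider list on the right, with the 4 comparisons as columns. Fgfr4, Gpx3, Dll1 and Ramp2 are blue in both day 6 comparisons and pale red at day 8, where of these only Gpx3 reaches 2-fold. Cxcl12 is red in all 4.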

How the data were processed

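RNA from C2C12 cells (oligo(dT)-selected, directional libraries, per the labels) was available as 4 tables. The authors aligned reads with Tophat and Bowtie2 and estimated expression with Cuffdiff, per the labels for build mm10, and the deposited values are FPKM, normalized separately in each table. Tool versions and the gene annotation are not given in the sources used here. Low FPKM values, each resting on few fragments, are imprecise, and depth was estimated from what 1 fragment adds to the lowest values (transcripts of at least 1500 bases, with 200 bases taken off). Columns of the authors' own comparisons (log2 fold change, test statistic, p-value, q-value) were not used.

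Ratios were log2((treated + 0.01)/(control + 0.01)) where either column reached 1 FPKM, and differences of 2-fold were counted. No test was possible with 1 value per condition. Whether libraries came from separate cultures is not stated. The members and gene lists were chosen with earlier results of these data known. Named genes are all members, partners at least 4-fold changed and the 3 genes most like each member. From the wider list, the rule was the 3 largest changes per direction among genes with at least 5 FPKM. Itga7, Cdh2 and Dusp1 at day 0 and Btg2 and Notch2 at day 8 also met that rule but are not described. The alternatives were pseudocounts of 0.1 and 1 FPKM, no minimum, a minimum of 5 FPKM, 1 FPKM in both columns, centring on the median gene, genes with a completed Cuffdiff estimate only and, added after seeing the data, the control of the other day 6 table. Python 3.11.15 with pandas 2.3.3, numpy 2.4.6, scipy 1.17.1 and matplotlib 3.10.9 was used, and the scripts were tested on simulated data. Coordinates are those of the files, counted from 1. Promoters came from the RefSeq table of GRCm38.p6 and transcripts from GENCODE vM21.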

Additional observations from a re-analysis of the deposited data

Results flagged for a closer look

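For 4 members the Huwe1 knockdown ratio at 2 times had opposite signs, with at least 1 of the ratios past 2-fold, and none of these differences was tested, because each rests on 1 value per condition in separately normalized tables. On the log2 scale, the day 8 ratio minus the day 6 ratio was 7.70 for Pax7, 1.77 for Cxcr4 and 2.00 for Vcam1, all lower at day 6 and higher at day 8. For Sdc3 it was -2.22, higher at day 6 and lower at day 8, with a day 6 direction that turns when the control of the USP10 table is used. Sdc4 changed sign as well, with every ratio within 2-fold. For Vcam1 the day 8 ratio minus the day 0 ratio was 1.75.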

How the results depend on the processing

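No paired analysis was possible because each table holds 1 value per condition, with the 2 knockdown libraries in 1 column, and for the same reason no single library could be left out. The count of 3 members lower in the day 6 knockdown became 2 with a pseudocount of 1, where Cxcr4 stood at -0.98. It also became 2 with 1 FPKM required in both columns, which leaves out Pax7. With USP10 overexpression, the count of 4 lower became 3 with 1 FPKM required in both columns. The count of 1 member higher in the day 6 knockdown (Sdc3) became 0 with a pseudocount of 1, with a minimum of 5 FPKM and with 1 FPKM required in both columns. The count of 1 member lower in the day 8 knockdown became 2 with no minimum, when Pax3 was added. From day 0 to day 6 in controls, the count of 1 member lower became 0 with a pseudocount of 1, a minimum of 5 FPKM or 1 FPKM in both columns, and the count of 4 higher became 1 with 1 FPKM in both columns, which leaves out genes near 0 at day 0. With the control of the other day 6 table, chosen after seeing the data, 5 members were lower and 0 higher in the day 6 knockdown and 1 was higher with USP10 overexpression. The log2 ratio of Sdc3 then turned to -1.82 in the knockdown and 1.35 with USP10 overexpression. The Pax7 log2 ratio was -5.73 and -3.03 in the day 6 knockdown and -5.53 and -3.10 with USP10 overexpression for pseudocounts of 0.1 and 1. The counts over all genes moved most with no minimum, to 3141 lower and 3937 higher in the day 6 knockdown and 2880 and 2983 with USP10 overexpression. Of the log2 ratios of members under these settings, 111 moved by less than the robust SD between the day 6 controls, 13 moved further, and 2, both of Sdc3 with the other day 6 control, changed sign from past 2-fold. Among the 13, both Pax3 ratios changed sign with that control, at levels never over 0.111 FPKM. Columns that pool libraries hide their spread, and the day 6 control of the USP10 table is limited by its depth, about 8540000 fragments if it was 1 library.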
